A study of Kandelia obovata with 24 samples.

Results

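DN8005_c0_g2 is a unigene of the mangrove *Kandelia obovata*, that is, a gene-level unit assembled from RNA-Seq reads without a reference genome. It is 1 of 33344 unigenes in the deposited table. The study placed it in sphingolipid metabolism, annotated its product as an integral component of membrane, and listed it among the hub unigenes of the co-expression module MEturquoise. It was selected on the co-expression of these same libraries, in a network of unigenes called between ABA-100 and CK under freezing. Its levels and differences are therefore given as a description, with no test.

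The KEGG orthology group that the study gave to DN8005_c0_g2, K04710, is the ceramide synthase family. Ceramide synthases sit in the endoplasmic reticulum membrane and join a fatty acyl chain to a sphingoid base, which makes ceramide. In plants, ceramide is the precursor of the glucosylceramides and glycosyl inositol phosphoryl ceramides of the plasma membrane, and sphingoid bases and ceramides are known as signals in cold, ABA and cell death responses.

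Leaves were taken at 4 stages of a natural frost event in the field, from seedlings given abscisic acid (ABA) at 100 mg/L on the foliage (ABA-100) and from controls that received no ABA (CK). ABA is a hormone by which plants respond to drought and cold. The stages are named by air temperature, in order of sampling 10.2 ℃, -4.1 ℃, -5.3 ℃ and 9.7 ℃, so that there were 8 groups of 3 libraries. All plants were 3-year-old *K. obovata* seedlings moved north to the site, and the same seedlings were sampled at each stage. The CK libraries carry the genotype label wild type. The ABA-100 libraries carry the words experiment type in that field, and no genetic change is named for either. Nothing in the labels says whether a replicate number marks a seedling. The p-values therefore set differences against the spread between these libraries, taken as independent although seedlings were sampled repeatedly.

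The deposited values are TPM (transcript abundance scaled to a common total), which also corrects for transcript length. The number of reads behind each value is unknown, since the table holds no counts. From 25523 to 27061 unigenes were above 0 per library, and Pearson's r of log2(TPM + 1) across unigenes was 0.963 to 0.978 within groups and 0.929 to 0.973 across groups. The spray was given after the sampling at 10.2 ℃, so by their label the ABA-100 (10.2 ℃) leaves were still unsprayed. Yet 4.94% of the 21523 unigenes tested were called between ABA-100 and CK at that stage. A call needed a limma p, after Benjamini-Hochberg adjustment across these unigenes, no greater than 0.05 together with a log2 fold change beyond 1 in size. A few unigenes looked up in the study's volcano plot of the labels at -4.1 ℃ were drawn in the direction opposite to that between the deposited libraries, and no tally was made. The deposited library names begin with A or B in CK and with C or D in ABA-100. Each letter spans more than 1 labelled stage, and the digit after it takes the same values under every letter. What letter and digit stand for is not stated, and whether the labels of stage and treatment are right was not tested. The groups are therefore written as the libraries are labelled. No difference between ABA-100 and CK can be assigned to the spray, and none between stages to the temperature. The leaf origin was not checked against marker genes, because the table pairs no unigene with a gene name. In whole leaves, fewer cells of a type and less RNA per cell cannot be told apart.

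With stage and treatment taken as labelled, DN8005_c0_g2 had more TPM in ABA-100 leaves than in CK leaves at every stage. It had by far the most at -4.1 ℃. At -4.1 ℃ it had 39.20, 41.72 and 36.11 TPM in the ABA-100 libraries, against 3.59, 3.08 and 5.22 TPM in the CK libraries. The lowest ABA-100 library at this stage had several times the TPM of the highest CK library. The group means were 39.0 ± 2.81 TPM in ABA-100 and 3.96 ± 1.12 TPM in CK (SD, n = 3 each), a 9.84-fold difference in mean TPM. On the log2(TPM + 1) scale the difference was 3.03 (standard error 0.13), and 0.53% of the unigenes tested had a larger one. At this stage 6.26% of unigenes were called in either direction. Nothing is read from this share for DN8005_c0_g2, since the study chose it among unigenes called between the labels at either freezing stage or both.

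Before the frost, at 10.2 ℃, DN8005_c0_g2 had 11.80, 13.09 and 13.84 TPM in the ABA-100 libraries, against 4.63, 5.59 and 5.10 TPM in the CK libraries. The libraries did not overlap, although by their labels all of these leaves were taken before the spray. The means were 12.9 ± 1.03 TPM in ABA-100 and 5.11 ± 0.48 TPM in CK (SD, n = 3 each), which is a 2.53-fold difference and a log2 difference of 1.19 (standard error 0.13). At this stage 3.07% of unigenes had a larger difference.

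**Figure D1:**
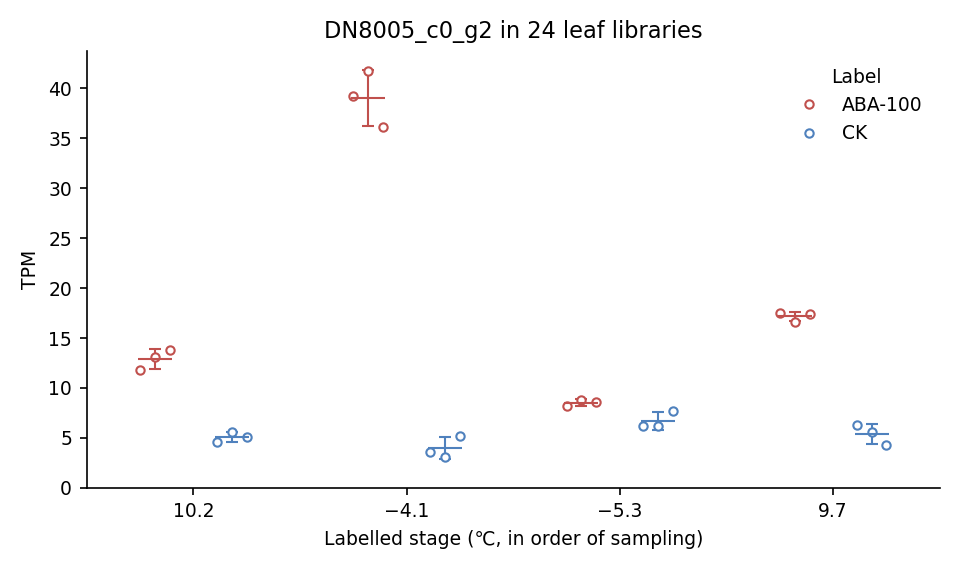
TPM of DN8005_c0_g2 (vertical axis, linear from 0) at each labelled stage (horizontal axis, ℃, in order of sampling), with ABA-100 in red left of CK in blue. Circles are single libraries and bars are the mean ± SD of 3 libraries; the ABA-100 (-4.1 ℃) libraries lie at 36.11 to 41.72 TPM, and all 12 CK libraries lie at or below 7.69 TPM.

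At -5.3 ℃ the labels came closest to each other. DN8005_c0_g2 had 8.18, 8.83 and 8.55 TPM in the ABA-100 libraries and 6.24, 6.16 and 7.69 TPM in the CK libraries. The libraries still did not overlap, but only 0.49 TPM separated the lowest ABA-100 library from the highest CK library. The means of 8.52 ± 0.326 TPM in ABA-100 and 6.70 ± 0.861 TPM in CK (SD, n = 3 each) stood 1.27-fold apart, with a log2 difference of 0.31 (standard error 0.13). A larger difference was held by 11.0% of unigenes, and 1.82% of unigenes were called between the labels at this stage. This share was smaller than the 6.26% called between the labels at -4.1 ℃. The study, which tested counts, reported the opposite order, with more unigenes at the second freezing stage than at the first. The reason for this was not tested.

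After the frost, at 9.7 ℃, the labels stood further apart than at -5.3 ℃. The ABA-100 libraries had 17.52, 16.64 and 17.37 TPM of DN8005_c0_g2, against 6.27, 5.57 and 4.33 TPM in the CK libraries. Every ABA-100 library was more than 10 TPM above every CK library. The mean was 17.2 ± 0.471 TPM in ABA-100 and 5.39 ± 0.982 TPM in CK (SD, n = 3 each), a 3.19-fold difference. The log2 difference was 1.52 (standard error 0.13), 1.70% of unigenes had a larger one, and 4.01% were called.

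Over all stages, DN8005_c0_g2 lay between 8.18 and 41.72 TPM in the 12 ABA-100 libraries (median 15.2 TPM) and between 3.08 and 7.69 TPM in the 12 CK libraries (median 5.40 TPM). Of the ABA-100 libraries 9 reached 10 TPM, and none of the CK libraries did. The 2 sets of 12 did not overlap, which was also the case for 0.985% of all unigenes tested in this direction (212 of 21523). With the medians of the libraries aligned by median-of-ratios scaling, the lowest ABA-100 library had 8.64 TPM and the highest CK library 7.24 TPM. Under quantile normalization these were 8.91 and 7.13 TPM. The median log2 difference of all unigenes between ABA-100 and CK was -0.14 at 10.2 ℃ and -0.15 at -5.3 ℃, and with median-of-ratios scaling the log2 difference of DN8005_c0_g2 was 1.35 and 0.48 at these stages.

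From the highest mean to the lowest, the 8 groups ran through ABA-100 at -4.1, 9.7, 10.2 and -5.3 ℃ and then through CK at -5.3, 9.7, 10.2 and -4.1 ℃. Each of the first 4 groups stood clear of the group after it, with gaps of 18.59, 2.80, 2.97 and 0.49 TPM between their nearest libraries. The 4 CK groups each overlapped with their neighbour in this order. Every ABA-100 (-4.1 ℃) library was above the 21 others, as in 3.64% of unigenes tested. The highest group mean was 4.58-fold the lowest within ABA-100, and 1.69-fold within CK.

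Within ABA-100, as labelled, the unigene stood above its 10.2 ℃ level at the first freezing stage and below it at the second. Its mean at -4.1 ℃ was 3.02 times that at 10.2 ℃ (log2 difference 1.53, standard error 0.13), and 3.35% of unigenes were called in this contrast. At -5.3 ℃ it was 0.66 times that at 10.2 ℃, a log2 difference of -0.55 (standard error 0.13), with 2.92% of unigenes called. At 9.7 ℃ the mean was 1.33 times that at 10.2 ℃ and the log2 difference was 0.39 (standard error 0.13), with 2.67% called. The libraries of each stage were clear of those at 10.2 ℃. The median of all unigenes lay at 0.16 on the log2 scale in the contrast of 9.7 ℃ with 10.2 ℃, so the last difference is 0.20 once the medians are aligned.

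Within CK, as labelled, the freezing stages stood in the opposite order, over a narrower range. The mean of DN8005_c0_g2 at -4.1 ℃ was 0.776 times that at 10.2 ℃ (log2 difference -0.32, standard error 0.13), with overlapping libraries, and 0.367% of all unigenes were called. At -5.3 ℃ it was 1.31 times that at 10.2 ℃ (log2 difference 0.33, standard error 0.13). These libraries did not overlap, and 1.51% of unigenes were called. At 9.7 ℃ the log2 difference from 10.2 ℃ was 0.06 (standard error 0.13), less than its error, and 0.994% were called. The 3 stage contrasts of a label share their 10.2 ℃ libraries.

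The size of the difference between the labels was not the same at each stage. Relative to 10.2 ℃, the log2 difference of ABA-100 minus CK was greater by 1.84 at -4.1 ℃ (standard error 0.18), a value exceeded by 0.85% of unigenes. It was -0.88 at -5.3 ℃ and 0.33 at 9.7 ℃ (standard error 0.18 each). Such a change of the label difference was called for 2.86% of unigenes at -4.1 ℃, 3.27% at -5.3 ℃ and 4.54% at 9.7 ℃.

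**Figure D2:**
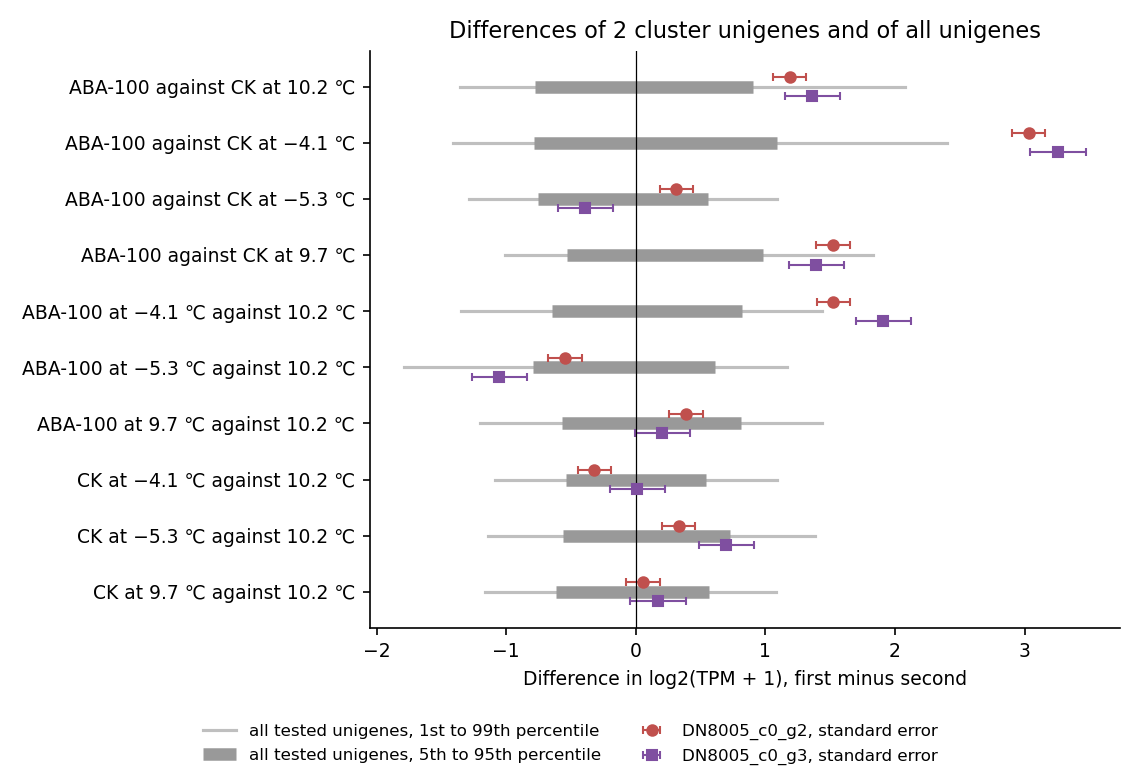
Differences in log2(TPM + 1), first group minus second, of DN8005_c0_g2 (circles) and DN8005_c0_g3 (squares) in 10 contrasts, with standard errors, over the 5th to 95th (thick grey) and 1st to 99th (thin grey) percentiles of all 21523 unigenes tested. Both lie beyond the 99th percentile in the contrast of ABA-100 with CK at -4.1 ℃, at 3.03 and 3.26, and inside the 5th to 95th percentiles in that contrast at -5.3 ℃, at 0.31 and -0.39.

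Trinity, the assembler, names a unigene by its read cluster (DN), its component (c) and its gene (g). The cluster DN8005 held 4 unigenes, DN8005_c0_g2 with DN8005_c0_g1 and DN8005_c0_g3 in the same component, and DN8005_c1_g1 in another. Unigenes of a component can share sequence, and reads that fit more than 1 of them are divided by the estimation of abundance. How far this happened here was not tested. The study did not list the other 3 unigenes as hubs and they are not annotated in the sources used here. They were tested with limma in the fit over all unigenes tested.

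DN8005_c0_g3 had a profile like that of DN8005_c0_g2 at a lower level, except at -5.3 ℃. At -4.1 ℃ it had 9.86, 11.43 and 8.27 TPM in the ABA-100 libraries, against 0.15, 0.08 and 0.15 TPM in the CK libraries, and it was called higher in ABA-100 (log2 fold change 3.26 with a standard error of 0.21, limma adjusted p = 4.15e-10). It was thus nearly undetected in CK leaves at the stage at which it peaked in ABA-100 leaves. At 10.2 ℃ it had 2.09, 1.65 and 1.88 TPM in ABA-100, against 0.13, 0.15 and 0.07 TPM in CK (log2 fold change 1.36, adjusted p = 5.75e-05 from limma). At 9.7 ℃ the values were 1.87, 2.97 and 2.16 TPM in ABA-100, against 0.55, 0.28 and 0 TPM in CK (log2 fold change 1.39, adjusted p = 7.01e-05 from limma). At all of these stages the ABA-100 libraries were clear of the CK libraries. Unigenes were tested if they had 1 TPM or more in 3 or more libraries of any label. DN8005_c0_g3 met this through ABA-100 libraries, since too few CK libraries reached 1 TPM. It was also called higher in ABA-100 at these stages when no such filter was applied. The fold changes understate the differences in TPM of so low a unigene, because of the 1 TPM added before the logarithm.

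At -5.3 ℃ DN8005_c0_g3 was not called. It had 0.23, 0.90 and 0.13 TPM in the ABA-100 libraries and 0.40, 0.87 and 1.27 TPM in the CK libraries, which overlapped, and the log2 fold change was -0.39 (adjusted p = 0.19 from limma). Its mean was the lower one in ABA-100 at this stage, while that of DN8005_c0_g2 was the higher one. Within ABA-100, DN8005_c0_g3 rose at -4.1 ℃ against 10.2 ℃ (log2 fold change 1.91, adjusted p = 2.49e-06 from limma). It fell at -5.3 ℃ against 10.2 ℃ (log2 fold change -1.05, adjusted p = 0.00219 from limma). This last value stood close to the fold threshold, and was -0.999 without ABA-100 (10.2 ℃) replicate 1, -0.969 without ABA-100 (-5.3 ℃) replicate 1 and -0.908 without ABA-100 (-5.3 ℃) replicate 3, none of them called. At 9.7 ℃ against 10.2 ℃ it was not called within ABA-100 (log2 fold change 0.20, adjusted p = 0.521 from limma).

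Within CK, DN8005_c0_g3 was not called at any stage against 10.2 ℃. Its largest difference was at -5.3 ℃, at 0.70 on the log2 scale (adjusted p = 0.046, limma), under the fold threshold. With 0.1 TPM added in place of 1 TPM the value was 2.03 (adjusted p = 0.0309 from limma) and was called. The change of the label difference against 10.2 ℃ was called at -4.1 ℃ (1.90, standard error 0.30, limma adjusted p = 0.000275). With 0.1 TPM added it was 2.26 and not called (adjusted p = 0.0886 from limma). At -5.3 ℃ that change was also called (-1.75, standard error 0.30, limma adjusted p = 0.000603), and at 9.7 ℃ it was 0.03 (adjusted p = 0.957 from limma).

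The other 2 unigenes of the cluster did not follow. DN8005_c0_g1 lay at 2.09 to 4.38 TPM in the ABA-100 libraries (median 3.16 TPM) and at 2.32 to 4.60 TPM in the CK libraries (median 4.19 TPM). The labels overlapped at every stage, with adjusted p from 0.166 to 0.798 from limma. It was not called in any of the 10 contrasts, and its log2 fold change of 0.55 within ABA-100 at 9.7 ℃ against 10.2 ℃ passed the adjusted p alone (0.014 from limma).

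DN8005_c1_g1 was the most abundant of the cluster in CK leaves. It lay at 18.58 to 25.03 TPM in the ABA-100 libraries (median 20.2 TPM) and at 23.78 to 34.69 TPM in the CK libraries (median 28.9 TPM). At -4.1 ℃ the mean was 19.9 TPM in ABA-100 and 31.5 TPM in CK, which is -0.63 on the log2 scale (standard error 0.10, limma adjusted p = 6.18e-05). The direction was opposite to that of DN8005_c0_g2. At 10.2 and -5.3 ℃ the log2 fold changes were -0.46 and -0.48 (adjusted p = 0.00131 each, from limma), and at 9.7 ℃ it was -0.16 (adjusted p = 0.276 from limma). The value at 10.2 ℃ was -0.29 with median-of-ratios scaling and that at -5.3 ℃ was -0.28 with quantile normalization. The fold threshold was not passed at any stage.

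**Figure D3:**
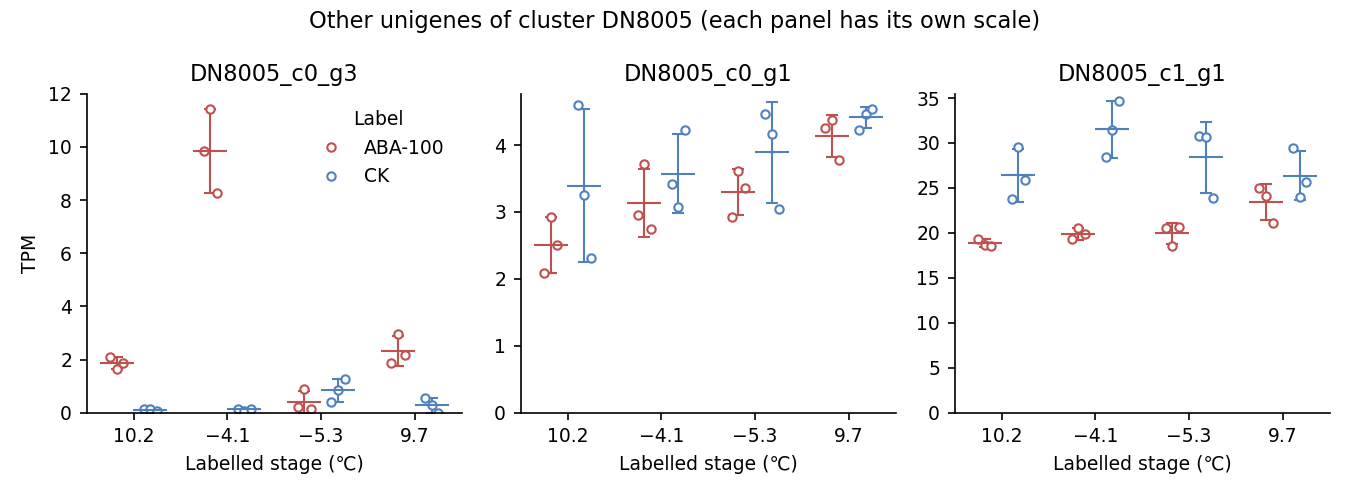
TPM (vertical axis, linear from 0, one scale per panel) of DN8005_c0_g3, DN8005_c0_g1 and DN8005_c1_g1 at each labelled stage (horizontal axis, ℃), with ABA-100 in red left of CK in blue, circles for libraries and bars for the mean ± SD of 3. DN8005_c0_g3 stands at 8.27 to 11.43 TPM in ABA-100 (-4.1 ℃), DN8005_c0_g1 overlaps between the labels at every stage, and DN8005_c1_g1 is lower in ABA-100 at 10.2, -4.1 and -5.3 ℃.

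Summed over component c0, the mean was 52.0 ± 4.87 TPM in ABA-100 (-4.1 ℃) and 7.66 ± 1.73 TPM in CK (-4.1 ℃) (SD, n = 3 each). The sum differed in the same direction as DN8005_c0_g2. At 10.2 ℃ the sum was 17.3 ± 1.17 TPM in ABA-100 and 8.62 ± 0.992 TPM in CK. At -5.3 ℃ it was 12.2 ± 1.01 TPM in ABA-100 and 11.4 ± 0.492 TPM in CK, and at 9.7 ℃ 23.7 ± 0.34 TPM in ABA-100 and 10.1 ± 1.11 TPM in CK (SD, n = 3 each). DN8005_c0_g2 made up between 69.8% and 75.1% of the sum in the ABA-100 groups, and between 51.3% and 59.9% in the CK groups, by mean.

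As deposited, DN8005_c0_g3 did not keep a fixed ratio to DN8005_c0_g2. In CK and in ABA-100 (-5.3 ℃) the ratio rests on DN8005_c0_g3 values of 0 to 1.27 TPM, whose precision is unknown. How reads that fit both unigenes were divided was not tested. For every 100 TPM of DN8005_c0_g2 there were 25.2 ± 2.25 TPM of DN8005_c0_g3 in ABA-100 (-4.1 ℃) and 3.22 ± 0.844 TPM in CK (-4.1 ℃) (SD, n = 3 each). At -5.3 ℃ the ratio was 4.84 ± 4.68 TPM in ABA-100 and 12.3 ± 5.28 TPM in CK (SD, n = 3 each), with overlapping libraries. At 10.2 ℃ it was 14.6 ± 2.71 TPM in ABA-100 and 2.29 ± 0.795 TPM in CK, and at 9.7 ℃ 13.7 ± 3.74 TPM in ABA-100 and 4.60 ± 4.40 TPM in CK (SD, n = 3 each).

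Profiles over the 24 libraries were compared with that of DN8005_c0_g2 by Pearson's r of log2(TPM + 1), as a description. The libraries share their groups and the TPM total, so r includes the differences among the 8 groups. Of 21522 unigenes compared, 323 had an r above 0.9 and 8 an r below -0.9. The 6 most alike were DN477_c0_g1 (r = 0.981), DN1606_c0_g1 (r = 0.981), DN2461_c0_g2 (r = 0.980), DN1061_c0_g1 (r = 0.978), DN6309_c0_g1 (r = 0.978) and DN5862_c0_g1 (r = 0.978). DN477_c0_g1 is annotated by the study as a protein serine/threonine phosphatase, an enzyme that removes phosphate groups from proteins, and is a hub of the same module. The sources used here give no annotation for the other 5.

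All 6 were highest in ABA-100 (-4.1 ℃), as DN8005_c0_g2 was, which their choice by r fixed in part. They differed in the size of the contrast. DN1061_c0_g1 had a mean of 104.6 TPM in ABA-100 (-4.1 ℃) and 2.93 TPM in CK (-4.1 ℃), a 35.7-fold difference. DN2461_c0_g2 had 63.2 TPM in ABA-100 (-4.1 ℃) and 6.56 TPM in CK (-4.1 ℃), which is 9.62-fold and near the 9.84-fold of DN8005_c0_g2. DN1606_c0_g1 had 32.2 TPM in ABA-100 (-4.1 ℃) and 11.9 TPM in CK (-4.1 ℃), which is 2.69-fold.

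With the group means taken out, r of the remaining deviations between libraries was 0.681 for DN1061_c0_g1, 0.588 for DN5862_c0_g1 and 0.134 for DN477_c0_g1. Of all unigenes, 252 had an r of deviations above 0.6. DN8005_c0_g3 was 59th in likeness (r = 0.957), while DN8005_c0_g1 (r = -0.229) and DN8005_c1_g1 (r = -0.656) were far down the order. The most opposite profiles were those of DN7592_c0_g1 (r = -0.960), DN6535_c0_g1 (r = -0.950) and DN2897_c0_g1 (r = -0.929). DN6535_c0_g1 was the most abundant of these, with a mean of 282 TPM in ABA-100 (-4.1 ℃) and 479 TPM in CK (-4.1 ℃). It was lowest in the group in which DN8005_c0_g2 was highest, which its choice by r also fixed in part.

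The likeness depended on which libraries were used. Without the 3 libraries of ABA-100 (-4.1 ℃), 187 unigenes had an r above 0.9 and 2 of the 6 stayed among the 6 most alike. Over the 12 CK libraries alone, where DN8005_c0_g2 varied little, 2 unigenes had an r above 0.9. Over the 12 ABA-100 libraries alone 481 did, and none of the 6 was among the most alike over either label alone.

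The study listed 5 hub unigenes for MEturquoise. Besides DN8005_c0_g2 and DN477_c0_g1 these are DN3958_c0_g1, a ferrochelatase (which inserts iron into protoporphyrin to make heme), DN3221_c0_g1, a protein serine/threonine kinase (which adds phosphate groups to proteins), and DN2948_c0_g1, annotated to the nucleus. Their r with DN8005_c0_g2 was 0.968, 0.966 and 0.969, which the choice of hubs by co-expression in these libraries fixed in part. The 7 hubs of other modules had an r between -0.923 and 0.203.

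At -5.3 ℃ the values of the hubs depended on the scaling. As deposited, ferrochelatase (DN3958_c0_g1) had 13.16 to 13.88 TPM in the ABA-100 libraries and 14.30 to 19.03 TPM in the CK libraries, and DN2948_c0_g1 had 8.70 to 11.67 TPM in ABA-100 and 12.37 to 15.50 TPM in CK. The labels did not overlap as deposited, with log2 differences of -0.20 for DN3958_c0_g1 and -0.36 for DN2948_c0_g1. With median-of-ratios scaling, which sets the median difference of all unigenes at this stage to 0, these were -0.03 and -0.19 and the libraries of both overlapped. The kinase DN3221_c0_g1 (37.93 to 40.43 TPM in ABA-100 and 39.68 to 46.16 TPM in CK) and the phosphatase DN477_c0_g1 (10.94 to 11.99 TPM in ABA-100 and 10.19 to 11.64 TPM in CK) overlapped between the labels as deposited. With the scaling their log2 differences were 0.07 and 0.23, and the libraries of DN477_c0_g1 no longer overlapped. DN8005_c0_g2 was higher in every ABA-100 library at this stage both as deposited (0.31) and with the scaling (0.48). At -4.1 ℃ the fold of mean TPM in ABA-100 over CK was 7.12 for DN2948_c0_g1, 6.15 for DN3958_c0_g1, 5.53 for DN477_c0_g1 and 3.63 for DN3221_c0_g1, each smaller than that of DN8005_c0_g2. Differences between hubs were not tested.

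**Figure D4:**
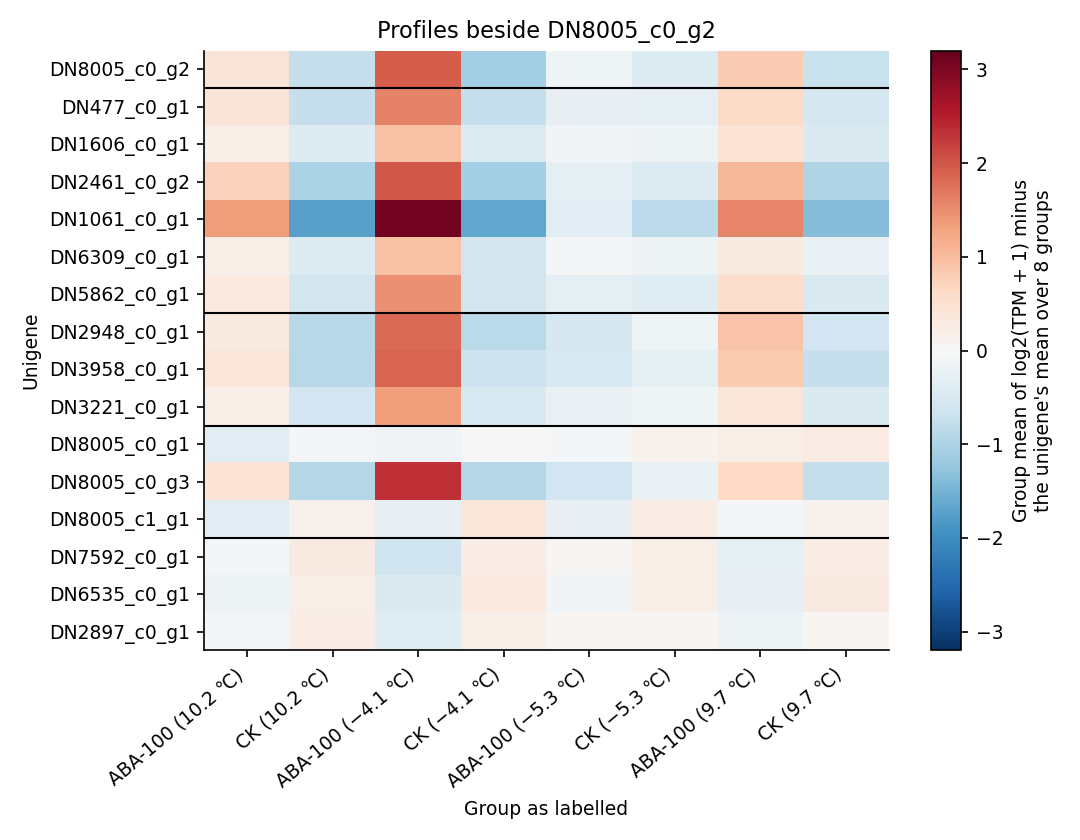
Group mean of log2(TPM + 1) minus the unigene's mean over the 8 groups (colour, red above and blue below) for DN8005_c0_g2, the 6 most alike unigenes, the 3 other MEturquoise hubs, the 3 other DN8005 unigenes and the 3 most opposite unigenes (rows, from top), by group (columns, ABA-100 left of CK at each stage). The ABA-100 (-4.1 ℃) column is the reddest for DN8005_c0_g2, its 6 most alike unigenes, the hubs and DN8005_c0_g3, and the bluest for the 3 unigenes at the bottom.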

How the data were processed

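Leaf RNA of 24 libraries (8 groups of 3) was sequenced by the authors as paired-end reads, which they trimmed with SeqPrep and Sickle, assembled with Trinity without a reference genome and quantified with RSEM. The authors deposited TPM for each unigene, which corrects for transcript length and sums to 1000000 per library. No read counts entered the analysis, so the authors' test on counts was not repeated and no counting error can be given.

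Libraries were grouped by their labels. Unigenes were kept at 1 TPM or more in 3 or more libraries, which left 21523, and log2(TPM + 1) was fitted in limma 3.58.1 (with trend, R 4.3.3) with 1 mean per group over all 24 libraries. Adjustment was by Benjamini-Hochberg over all unigenes of a contrast. A call required an adjusted p no greater than 0.05 together with a log2 fold change beyond 1 in size. The fit was tested on simulated data. Figures were drawn with matplotlib 3.10.9.

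The unigenes named are DN8005_c0_g2, the rest of its read cluster, the other MEturquoise hubs listed by the study, and the 6 highest and 3 lowest in Pearson's r with DN8005_c0_g2. The members and lists were chosen with earlier results of these data known. A list of other sphingolipid genes could not be formed, since the table pairs no unigene with a name, and no sequence of these unigenes was used here. Pseudocounts, scalings, filters, sets of libraries and a replicate block were tried as alternatives. The comparison of the 12 libraries of each label alone, the lowest and highest libraries under other scalings, and the hubs at -5.3 ℃ under other scalings were added after the data had been seen.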

Additional observations from a re-analysis of the deposited data

Results flagged for a closer look

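For DN8005_c0_g3, the difference between ABA-100 and CK at -4.1 ℃ differed from that at 10.2 ℃ by 1.90 on the log2 scale, and that at -5.3 ℃ differed from that at 10.2 ℃ by -1.75, both by the test of the change itself in limma. With 0.1 TPM added in place of 1 TPM, the change at -4.1 ℃ was 2.26 and not called (adjusted p = 0.0886 from limma). The change at -5.3 ℃ was then -4.24 and stayed called. Both use the CK (10.2 ℃) libraries, which had only 0.07 to 0.15 TPM of DN8005_c0_g3. For DN8005_c0_g2, every ABA-100 library at -5.3 ℃ was below every ABA-100 library at 10.2 ℃, while every CK library at -5.3 ℃ was above every CK library at 10.2 ℃. The change of the label difference was -0.88, and it was not tested.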

How the results depend on the processing

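The log2 difference of DN8005_c0_g2 between ABA-100 and CK kept its direction at all stages under every alternative tried. At 10.2 ℃ it was 1.32 with a pseudocount of 0.1 and 1.35 with median-of-ratios scaling. At -4.1 ℃ it was 3.299 with the pseudocount of 0.1, and 3.03 in the fit with a replicate block. At -5.3 ℃ it was 0.48 with median-of-ratios scaling and 0.49 with quantile normalization. Within ABA-100 against 10.2 ℃, it was 1.42 at -4.1 ℃ with quantile normalization, and 0.20 and 0.23 at 9.7 ℃ with median-of-ratios scaling and quantile normalization. The change of the label difference at 9.7 ℃ was 0.11 under both. Within CK at 9.7 ℃ it ranged from -0.042 to 0.18 when 1 library was left out, so it has no stable sign. Mean TPM with median-of-ratios scaling was 14.1 in ABA-100 (10.2 ℃), 9.13 in ABA-100 (-5.3 ℃) and 16.4 in ABA-100 (9.7 ℃).

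Of the cluster, 0 to 1 unigenes were called within ABA-100 at -5.3 ℃ when 1 library was left out. With the pseudocount of 0.1, 1 was called within CK at -5.3 ℃ and 0 for the change of the label difference at -4.1 ℃. With at least 10 TPM in 3 libraries required, DN8005_c0_g1 and DN8005_c0_g3 were not in the fit. Of the 6 most alike unigenes, 3 remained by Spearman's rho, 1 on unlogged TPM, 2 without ABA-100 (-4.1 ℃) and 0 over either label alone. Unigenes above 0.9 numbered 214 by rho, 187 without ABA-100 (-4.1 ℃) and 2 over CK alone.

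Over all unigenes, requiring 10 TPM, which tests fewer unigenes, gave 575, 753, 187 and 506 calls between ABA-100 and CK at the 4 stages in order of sampling, against 1064, 1348, 391 and 863 as reported. It gave 368, 318 and 235 for the stages within ABA-100 (721, 628 and 575 as reported), 45, 211 and 136 within CK (79, 325 and 214) and 372, 427 and 438 for changes of the label difference (616, 704 and 977). The pseudocount of 0.1 gave 1599 and 696 between labels at 10.2 and -5.3 ℃, 902 within ABA-100 at 9.7 ℃, and 493 and 359 within CK at -5.3 and 9.7 ℃. Fitting the libraries of a contrast alone gave 14, 183 and 120 within CK, and leaving out CK (10.2 ℃) replicate 1 gave 48 at -4.1 ℃.

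Replicate numbers were not taken to pair the libraries, because leaves came from the same seedlings across stages but no source ties a number to a seedling, and not every pair of same-numbered libraries deviated together. The deviations of same-numbered libraries from their group means had a median r of 0.0026, 0.0034 and 0.0018 for the 3 numbers. Of the 28 pairs of each number 0, 2 and 5 had an r above 0.1, with a highest r of 0.285. Of 24 libraries, 17 correlated best with their own number, a hint from the data and not from the design. These values were not set against those of libraries with different numbers, so the strength of the hint was not measured. With the replicate block, 1347 unigenes were called between ABA-100 and CK at -4.1 ℃, and no call of a cluster unigene changed in any contrast. TPM without counts leaves the precision of low values, such as those of DN8005_c0_g3 in CK, unknown.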
